A study of Solanum lycopersicum and Solanum pennellii with 32 samples.

Results

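Transcript levels of 8 genes for the uptake of nitrate and ammonium and for the reduction of nitrate were followed in tomato roots. The genes were set by identifier: NRT1.1 (Solyc08g078950), a pair of NRT2 genes (Solyc11g069735 and Solyc11g069750), the ammonium transporters AMT1;1 (Solyc09g090730), AMT1;2 (Solyc04g050440) and AMT1;3 (Solyc03g045070), nitrate reductase (Solyc11g013810) and nitrite reductase (Solyc10g050890). Of these 8, 7 were found among the 34843 gene models of each count table, and Solyc11g069735 was not analysed here. NRT2 therefore stands below for Solyc11g069750 alone. The names came with the list, since the tables hold identifiers only, and 0 of the identifiers occurred in the reference table.

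Nitrate enters root cells through NRT1 and NRT2 transporters. In Arabidopsis, NRT1.1 works over a wide range of nitrate concentrations and also acts as a nitrate sensor, whereas NRT2 proteins take up nitrate with high affinity. AMT1 proteins carry ammonium across the plasma membrane. Nitrate reductase turns nitrate into nitrite in the cytosol, and nitrite reductase turns the toxic nitrite into ammonium in plastids. In plants, transcripts of both reductases are known to be induced by nitrate.

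The seedlings belonged to the cultivated tomato Solanum lycopersicum M82 and to the wild Solanum pennellii LA0716 (Pennellii below), and all of them carried a 35S:TRAP construct, a transgene under a broadly active viral promoter. They were 8 to 10 days old and had grown at 25 °C with 12 hours of light, either with phosphate (sufficient) or without added phosphate (limiting). The first 1 cm of the root (tip) or about 2 cm at mid-length (midsection) was taken, which gave 8 groups of 4 biological replicates, each pooled from 30 to 40 plants. Levels are given as CPM, the reads of a gene relative to the TMM-scaled size of its library. They come from a 3′-end method and are compared only within a gene. In bulk tissue, fewer cells of a type and less RNA per cell cannot be told apart.

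The 16 M82 libraries held 1084652 to 34103546 counts, so that a floor of 3 counts corresponded to between 0.0947 and 2.79 CPM. A pair of Pennellii libraries from different groups (limiting tip replicate 3 and sufficient midsection replicate 1) had identical values in all 34843 gene models and was left out. The remaining 14 Pennellii libraries held 6225 to 13124725 counts, with floors of 0.226 to 180 CPM. The root positions could not be checked against marker genes, because no identifier could be paired with a marker name in the sources used here.

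In M82, more of these genes were called between root positions than between phosphate supplies. At sufficient phosphate, NRT2, AMT1;1, nitrate reductase and nitrite reductase were higher in the tip, NRT1.1 and AMT1;2 were higher in the midsection, and AMT1;3 was not called. That made 6 of 7 members called (edgeR quasi-likelihood test, adjusted p under 0.05 over 18275 genes), where 27.3% of all genes tested were called. At limiting phosphate 2 of 7 were called, NRT2 and nitrite reductase, both higher in the tip, where 10.4% of all genes were called. Limiting phosphate itself raised AMT1;2 in the tip, 1 of 7 members against 1.42% of all genes, and in the midsection 0 of 7 members were called, against 1.43% of all genes. Groups without overlap are pointed out below for both species. The share of all genes kept apart in this way was not counted, so a lack of overlap is descriptive only.

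**Figure D1:**
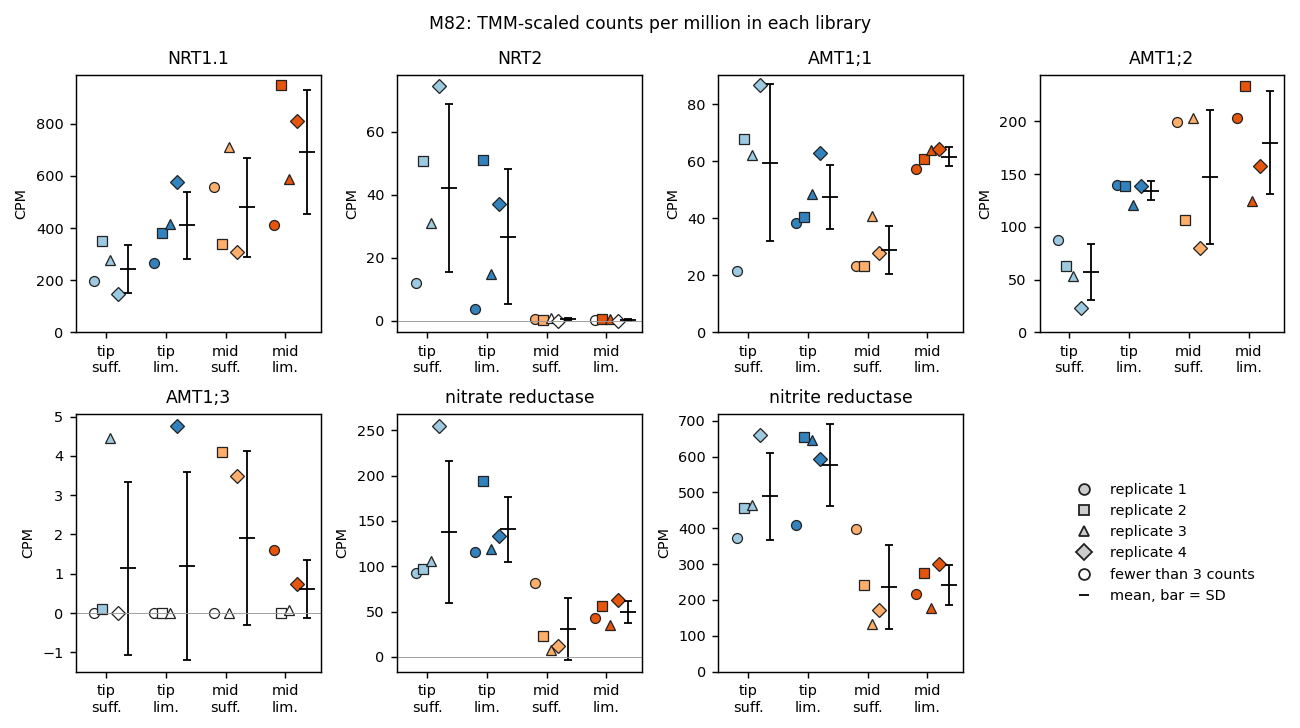
Levels in CPM of 7 genes in each of the 16 M82 libraries, by position and phosphate supply; points are libraries, with open points under 3 counts, and bars are the mean and SD of 4 libraries. NRT2 lies between 3.76 and 74.4 CPM in the tips and at or below 0.931 CPM in the midsections, while NRT1.1 and AMT1;2 have their lowest group mean in the sufficient tips.

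NRT2 showed the widest difference in the list. In sufficient tips its level was 12.0, 50.5, 31.1 and 74.4 CPM in replicates 1 to 4, and in limiting tips 3.76, 51.1, 14.7 and 37.1 CPM. In sufficient midsections it was 0.616, 0.333, 0.931 and 0 CPM, and in limiting midsections 0.168, 0.395, 0.577 and 0 CPM, which came from 9 and 12 counts in all. Every tip library was thus above every midsection library under both supplies. The means were 89.3 times higher in the tip at sufficient phosphate (42.0 ± 26.7 against 0.470 ± 0.397 CPM, SD, n = 4 each), or 6.78 ± 1.04 (SE) as a fitted log2 difference (edgeR adjusted p 7.03e-06). At limiting phosphate they were 93.5 times higher (26.7 ± 21.4 against 0.285 ± 0.253 CPM, SD, n = 4 each), or 6.38 ± 0.98 as a fitted log2 difference (edgeR adjusted p 1.95e-05). The ratio is loose, in part because the midsection counts are few. From summed counts over summed depth it was 134 (95% counting interval 70.2 to 293) at sufficient and 89.5 (50.9 to 174) at limiting phosphate. These intervals leave out the spread between replicates, and tip replicate 2 held 88.9% of the counts in sufficient tips. At sufficient phosphate the ratio of means was 66.4 without tip replicate 4 and 133 without midsection replicate 3. At limiting phosphate it was 64.9 without tip replicate 2 and 142 without midsection replicate 3. Limiting phosphate gave a log2 change of -0.65 ± 0.75 in the tip and -0.24 ± 1.04 in the midsection, with edgeR adjusted p of 0.859 and 0.977.

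NRT1.1 ran the other way along the root. Its level was 197, 352, 278 and 146 CPM in sufficient tips and 559, 337, 712 and 308 CPM in sufficient midsections. It was 267, 380, 415 and 578 CPM in limiting tips and 413, 949, 589 and 812 CPM in limiting midsections. The order of the means was limiting midsection (691 ± 237 CPM), sufficient midsection (479 ± 192), limiting tip (410 ± 129) and sufficient tip (244 ± 90.6; SD, n = 4 each), and neighbouring groups overlapped at each step. The sufficient midsections were 1.97 times the sufficient tips (log2 tip against midsection -0.97 ± 0.31, edgeR adjusted p 0.0217), and 1.27 times by summed counts, in which tip replicate 2 supplied most counts. The call ended without sufficient midsection replicate 1 or 3 or sufficient tip replicate 1 (edgeR adjusted p 0.0577, 0.0640 and 0.0765) and with limma-voom (log2 -0.46, adjusted p 0.237). Limiting phosphate gave log2 changes of 0.75 ± 0.31 in the tip and 0.53 ± 0.31 in the midsection that were not called (edgeR adjusted p 0.349 and 0.578). At limiting phosphate, tip against midsection was -0.75 ± 0.31 (edgeR adjusted p 0.136), called only with these groups fitted alone (0.0489).

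Among the ammonium transporters, AMT1;2 was the member that limiting phosphate raised. It stood at 87.8, 62.9, 53.4 and 23.5 CPM in sufficient tips and at 139, 138, 121 and 138 CPM in limiting tips. The 4 limiting tips were close together and all above the sufficient ones. The means differed 2.36-fold (56.9 ± 26.6 against 134 ± 9.07 CPM, SD, n = 4 each; log2 1.21 ± 0.32, edgeR adjusted p 0.0473). This call lay at the threshold: it ended with RLE scaling (adjusted p 0.0601), with limma-voom (0.0728), with these groups fitted alone (0.116), and without any 1 of the limiting tips or of sufficient tip replicates 2, 3 and 4 (0.0737 to 0.147), while the log2 change was 0.98 or higher in each alternative. In the midsection AMT1;2 was 200, 106, 203 and 79.6 CPM at sufficient and 203, 234, 124 and 158 CPM at limiting phosphate, and these ranges overlapped (log2 0.30 ± 0.31, edgeR adjusted p 0.844). At sufficient phosphate the midsection mean was 2.59 times that of the tip (log2 tip against midsection -1.34 ± 0.32, edgeR adjusted p 0.00201), a call kept under all 14 alternatives. At limiting phosphate the difference was -0.42 ± 0.31 on the log2 scale and was not called (edgeR adjusted p 0.511).

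AMT1;1 was not called for phosphate at either position. In midsections it was 23.2, 23.2, 41.0 and 27.7 CPM at sufficient and 57.4, 60.8, 63.9 and 64.4 CPM at limiting phosphate. The means were 28.8 ± 8.40 and 61.6 ± 3.26 CPM (SD, n = 4 each). The groups did not overlap, which held for 1 of 7 members here, with no share of all genes to set beside it. The log2 change of 1.12 ± 0.38 missed the threshold (edgeR adjusted p 0.186, unadjusted 0.00652) except with limma-voom (log2 1.28, adjusted p 0.0393). In tips AMT1;1 was 21.4, 67.7, 62.2 and 86.9 CPM at sufficient and 38.4, 40.3, 48.6 and 62.8 CPM at limiting phosphate, with no call (log2 -0.31 ± 0.38, edgeR adjusted p 0.866). At sufficient phosphate the tip mean was 2.07 times the midsection mean (log2 1.06 ± 0.39, edgeR adjusted p 0.039). That call ended under 9 of 14 alternatives, among them without sufficient midsection replicate 1, 2 or 4 or sufficient tip replicate 2, 3 or 4 (adjusted p 0.0708 to 0.116) and with these groups fitted alone (0.163). At limiting phosphate it was -0.37 ± 0.38 (edgeR adjusted p 0.673).

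AMT1;3 had few counts in most libraries. Its 16 M82 libraries ranged from 0 to 4.77 CPM, and more than 7 counts came only from sufficient midsection replicates 2 and 4 (37 and 28 counts), limiting midsection replicate 1 (19) and limiting tip replicate 4 (47). In limiting tips replicate 4 held every count. None of its comparisons was called, with edgeR adjusted p of 0.777 to 0.985 and standard errors of 1.87 to 2.71 on the log2 scale, so that a log2 difference as large as that of nitrate reductase (2.09, below) would lie within 2 standard errors.

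Both reductases were higher in the tip. Nitrate reductase was 92.7, 97.5, 105 and 255 CPM in sufficient tips and 81.6, 22.6, 7.45 and 12.1 CPM in sufficient midsections. At limiting phosphate it was 116, 194, 119 and 134 CPM in tips and 42.4, 56.2, 35.7 and 62.7 CPM in midsections. Tips lay above midsections in every library under both supplies. At sufficient phosphate the means differed 4.45-fold (138 ± 78.5 against 31.0 ± 34.4 CPM, SD, n = 4 each; log2 2.09 ± 0.53, edgeR adjusted p 0.00572), 9.79-fold without midsection replicate 1, and 3.18-fold without tip replicate 4. Summing counts over the libraries gave 2.76-fold (2.57 to 2.97, 95% counting interval). Tip replicate 2 held 76.9% of the summed tip counts and midsection replicate 1 held 68.2% of the summed midsection counts. The interval leaves out the spread between replicates. At limiting phosphate the log2 difference was 1.52 ± 0.52 with an edgeR adjusted p of 0.0696, which passed the threshold with limma-voom (0.000480) and with these groups fitted alone (0.000266). DESeq2 gave no adjusted p for nitrate reductase in any M82 comparison.

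Nitrite reductase had the same direction. It was 373, 456, 466 and 661 CPM in sufficient tips and 399, 242, 132 and 171 CPM in sufficient midsections, where only midsection replicate 1 reached the range of the tips. At limiting phosphate it was 409, 655, 647 and 593 CPM in tips and 216, 276, 179 and 301 CPM in midsections, without overlap. The tip means were 2.07 and 2.37 times the midsection means at sufficient and limiting phosphate, with log2 differences of 1.04 ± 0.27 (edgeR adjusted p 0.00364) and 1.25 ± 0.27 (edgeR adjusted p 0.00159). Both calls stood under all 14 alternatives. Phosphate moved neither reductase past the threshold: the log2 changes were 0.04 ± 0.51 and 0.24 ± 0.26 in tips and 0.62 ± 0.51 and 0.03 ± 0.26 in midsections for nitrate and nitrite reductase, with edgeR adjusted p of 0.991, 0.847, 0.771 and 0.988. Sufficient midsection replicate 1 held the highest level of both genes in its group, and without it the nitrate reductase change in the midsection became 1.72 (log2, edgeR adjusted p 0.0142).

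**Figure D2:**
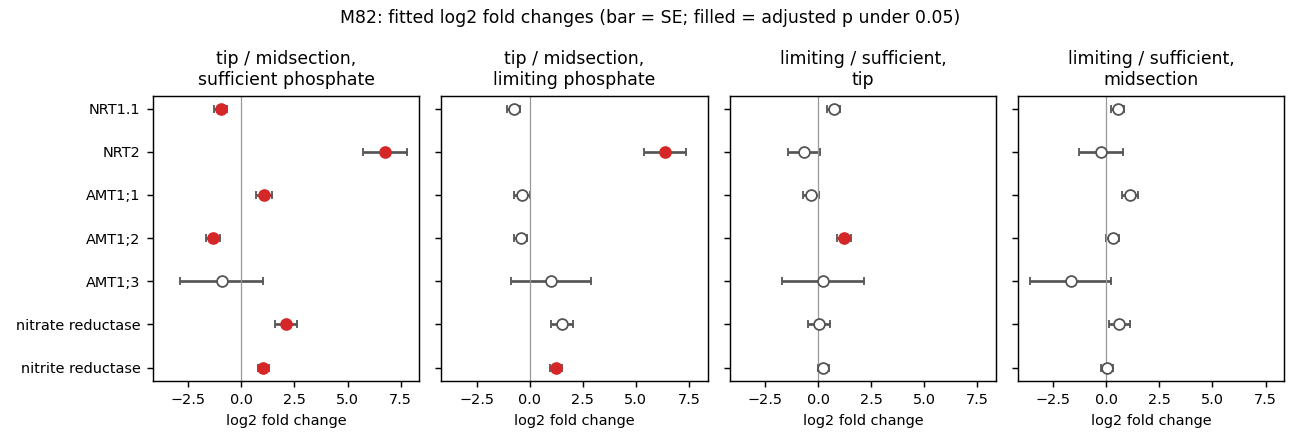
Fitted log2 fold changes (x axis) with standard errors for 7 genes in 4 M82 comparisons; filled points passed an adjusted p of 0.05. NRT2 stands at 6.78 and 6.38 in the tip against midsection panels, and AMT1;2 in the tip (1.21) is the only filled point in the phosphate panels.

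One library moved with the position result. Sufficient tip replicate 4 (1406650 counts) was the highest of its group in all 4 members called higher in the tip and the lowest in both members called lower. Among all genes, it was the highest of its group in 45.1% of the 2496 called higher in the tip and the lowest in 47.6% of the 2496 called lower. Without it, 5 of the 6 member calls remained and AMT1;1 was lost. Limiting tip replicate 1 was the lowest of its group in 6 of 7 members, AMT1;3 through a tie at 0, and in 37.3% of all genes.

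Whether the response to phosphate differed between tip and midsection was tested as an interaction. It was called for 0 of 7 members by edgeR, against 0.969% of all genes. An unadjusted edgeR p under 0.05 was reached by 2 of 7 members and by 2161 of the 18275 genes. DESeq2, which gave no adjusted p for AMT1;3 and nitrate reductase, called 0 of the other 5 members and 2.81% of all genes. With limma-voom 0 of 7 members and 1.23% of all genes were called. AMT1;1 had an interaction (tip response minus midsection response) of -1.44 ± 0.54 on the log2 scale (edgeR adjusted p 0.245), and AMT1;2 one of 0.92 ± 0.45 (edgeR adjusted p 0.416). These 2 transporters thus had point estimates of opposite sign, and neither difference between positions passed the test.

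Medians over so few members moved easily. The median log2 change with limiting phosphate was 0.24 in tips and 0.30 in midsections, beside 0.03 and -0.02 over all 18275 genes. In tips it ranged from -0.14 (without sufficient tip replicate 2) to 0.42 (without sufficient tip replicate 4) over the alternatives, and it was also below 0 without sufficient tip replicate 1 (-0.10). The median tip against midsection difference was 1.04 at sufficient phosphate, beside -0.02 over all genes, with 4 members positive and 3 negative. At limiting phosphate it was 1.00, which is the value of AMT1;3 itself (1.00 ± 1.87), beside -0.02 over all genes. Without limiting tip replicate 4, which held every AMT1;3 count of that group, AMT1;3 was at -5.28, 3 members were positive and 4 negative, and the median was -0.43. With all libraries kept, the median was also below 0 with the replicate block (-0.39), limma-voom (-0.04) and DESeq2 (-0.38, 5 members). It was above 0 with RLE scaling (0.98), no low-count filter (0.99) and the compared groups alone (0.44, 6 members).

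The members were also compared by their profiles over the 16 M82 libraries, as the root mean square difference of log2 CPM after centring each gene. Genes were not scaled, so the value reflects the size of changes as well as their shape. The root mean square of the centred profile itself was 2.96 for NRT2 and 1.77 for AMT1;3. It was 0.71 for NRT1.1 and 0.83 for AMT1;2. Of the 21 pairs, NRT1.1 and AMT1;2 were the most alike (0.51), followed by nitrate and nitrite reductase (0.71). NRT2 and AMT1;3 were the least alike (3.70). The pairs share libraries, depth and group differences, so the values describe likeness only.

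Nitrate and nitrite reductase were also alike among the replicates of a group. In sufficient tips, sufficient midsections and limiting midsections, the 4 libraries ranked in the same order for both genes, which 0.0821% of the other 18274 genes matched with nitrate reductase in as many groups. Both genes lay on the same side of their group means in 14 of 16 libraries, beside a median of 7 over all genes, and 0.41% of genes did so in as many libraries. For NRT1.1 and AMT1;2 the count was 10 of 16, reached by 27.8% of genes with NRT1.1. For NRT1.1 and AMT1;1 it was 12 of 16, reached by 6.56% of genes. In Pennellii the reductases lay on the same side in 9 of 14 libraries, the median over all genes there also being 9.

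**Figure D3:**
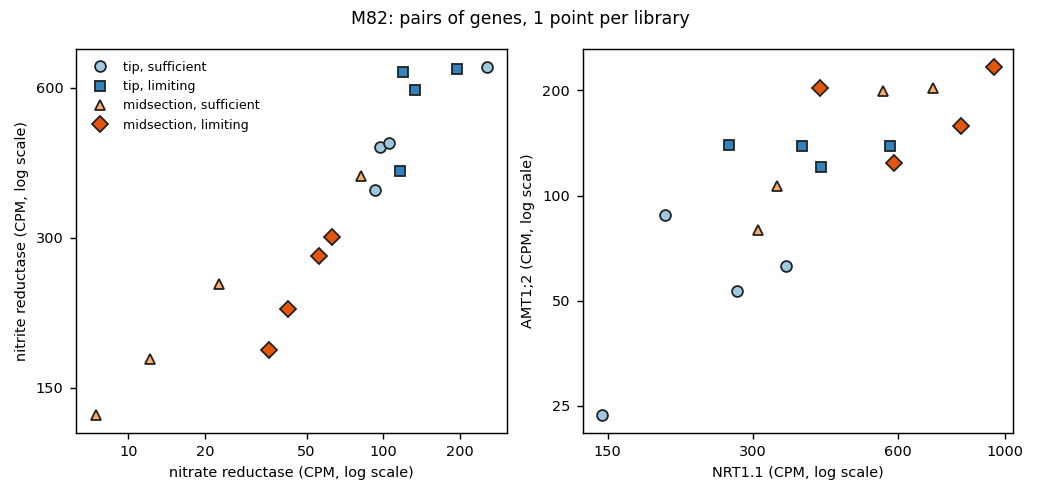
Levels of nitrate against nitrite reductase (left) and of NRT1.1 against AMT1;2 (right) in the 16 M82 libraries, both axes in CPM on a log scale, 1 point per library. The libraries rank alike for both reductases in 3 of 4 groups, and the right panel has its lowest point at 146 and 23.5 CPM, a sufficient tip library.

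Outside the list, the gene with the profile nearest to each member over the 16 libraries was Solyc03g120980.3.1 for NRT1.1 (0.36), Solyc12g019120.2.1 for NRT2 (0.80), Solyc06g072570.3.1 for AMT1;1 (0.31), Solyc07g040890.1.1 for AMT1;2 (0.32), Solyc11g071410.2.1 for AMT1;3 (0.93), Solyc04g082140.3.1 for nitrate reductase (0.37) and Solyc12g056580.2.1 for nitrite reductase (0.28). The median over all genes was 1.34 for NRT1.1 and 3.20 for NRT2. Solyc11g071410.2.1 had group means of only 0.167 to 1.17 CPM, so its match with AMT1;3 is between genes near the floor. Solyc12g019120.2.1, like NRT2, had a high mean in tips, 469 ± 226 CPM at sufficient and 283 ± 46.1 CPM at limiting phosphate (SD, n = 4 each). In midsections it averaged 6.95 ± 4.75 and 6.65 ± 2.60 CPM (SD, n = 4 each). Nothing in the sources used here names these genes.

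In Pennellii, 5 of the 7 members passed the low-count filter, and edgeR called 0 of the 5 in each comparison, also with the identical libraries kept. Over all 13450 genes, 0.684% were called for phosphate in tips, 0.119% for phosphate in midsections, and 0.238% and 0.32% for tip against midsection at sufficient and limiting phosphate. DESeq2 and limma-voom also called 0 members, but these tools called at most 0.855% and 0.0149% of all genes in any of the 4 comparisons, and DESeq2 gave no adjusted p for AMT1;1 and AMT1;2 in 2 of them. An unadjusted edgeR p under 0.05 was reached by 1 member in 1 of these 4 comparisons, that of phosphate in midsections. There 486 of the 13450 genes reached it. For phosphate in tips it was reached by 1823 genes. For tip against midsection it was reached by 1358 genes at sufficient and 1234 at limiting phosphate. The median of all genes was itself shifted in Pennellii, with a log2 change of 0.51 for phosphate in tips that became 0.17 with RLE scaling, so small member changes there have no firm zero.

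That 1 member was NRT1.1. In Pennellii midsections it was 635, 365 and 199 CPM in sufficient replicates 2 to 4 and 85.9, 14.1, 183 and 49.1 CPM in limiting replicates 1 to 4, without overlap. The limiting values came from 43, 2, 7 and 219 counts, so replicate 2 was under the floor. The log2 change was -2.38 ± 1.01 (unadjusted p 0.0181 in edgeR, adjusted p 1.00), and -2.39 with both identical libraries kept (edgeR adjusted p 0.716). In tips NRT1.1 was 175, 97.9, 295 and 120 CPM at sufficient phosphate (157, 3, 374 and 2 counts) and 135, 90.2 and 177 CPM at limiting phosphate, and the groups overlapped.

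NRT2 was almost without counts in Pennellii. It held at most 3 counts in any library. In the 3 limiting tips it held 0 after rounding, with a deposited value of 0.5 in replicate 4. The floors of these libraries were 0.618 to 2.76 CPM. The reads had been mapped to M82 according to the deposited table's name, and wild-species reads with mismatches may have failed to map, so no level is set against that of M82. AMT1;3 was counted in sufficient midsection replicates 3 and 4 (19 and 45 counts) and once in a sufficient tip, and nowhere else in Pennellii.

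Nitrite reductase was the only member with at least 3 counts in all 14 Pennellii libraries. It was 796, 97.9, 348 and 240 CPM in sufficient tips (713, 3, 440 and 4 counts) and 483, 356 and 251 CPM in limiting tips. It was 157, 263 and 235 CPM in sufficient midsections and 518, 148, 183 and 163 CPM in limiting midsections. Tips had the higher mean under both supplies, but all groups overlapped, and the log2 differences of 0.81 ± 0.91 and 0.51 ± 0.88 were not called (edgeR adjusted p 0.931 and 0.96). Nitrate reductase ranged from 0 to 331 CPM in sufficient tips, 97.5 to 613 CPM in limiting tips, 49.2 to 136 CPM in sufficient midsections and 7.03 to 388 CPM in limiting midsections. AMT1;1 ranged from 0 to 64.8 CPM and AMT1;2 from 0 to 88.2 CPM over the 14 libraries. Every 0 of nitrate reductase, AMT1;1 and AMT1;2 lay in a library with a floor of 21.1 CPM or more.

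**Figure D4:**
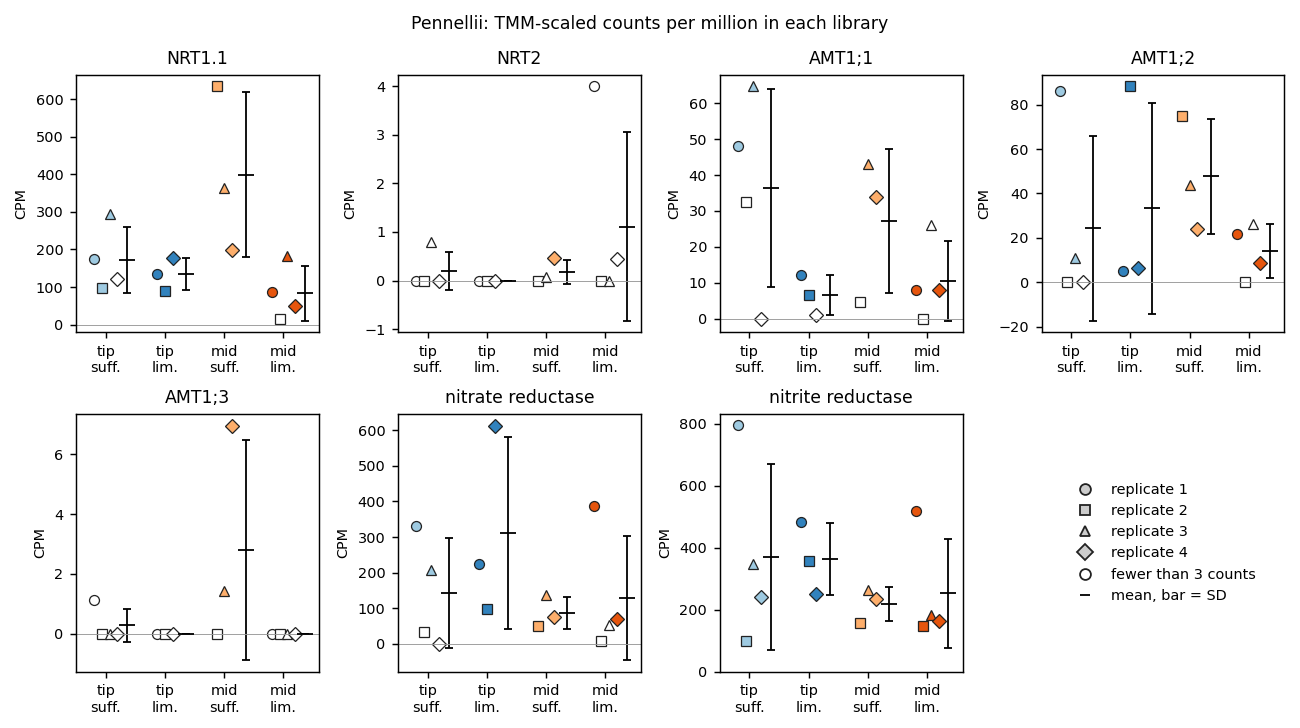
Levels in CPM of the same 7 genes in the 14 Pennellii libraries used; open points rest on fewer than 3 counts, and bars are the mean and SD of 3 or 4 libraries. NRT1.1 in the midsection is the only member whose groups stay apart between phosphate supplies, at 199 CPM or more against 183 CPM or less. The value of 183 CPM rests on 7 counts in a library with a floor of 78.3 CPM. The share of all genes kept apart in this way is not given here.

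Differences between species were tested in 1 fit of all 30 libraries and 19460 genes, in which all 7 members passed the filter. By edgeR 0 of 7 were called for the phosphate response of tips (1.24% of all genes) or of midsections (0.0411%). For tip against midsection at sufficient phosphate 0 of 7 were called (1.98%). In that order, 0, 2 and 1 members had an unadjusted edgeR p under 0.05, as had 3575, 1386 and 3588 of the 19460 genes. The nearest was NRT1.1 in the midsection, whose response was lower in Pennellii than in M82 by a log2 coefficient of -3.06 ± 0.76 (unadjusted p 0.000144, edgeR adjusted p 0.156). It was called under 5 of 23 alternatives: DESeq2 (adjusted p 0.0273), no low-count filter (0.0326), midsections fitted alone (0.0446), Pennellii libraries of at least 100000 counts (log2 -3.43, 0.00606) and without Pennellii limiting midsection replicate 3 (log2 -3.48, 0.0302). With the identical libraries kept it was -2.98 (edgeR adjusted p 0.199), and 0 members were called in any species comparison. Its coefficient stayed between -3.48 and -2.61 throughout. AMT1;1 in the midsection had -3.02 ± 1.27 (edgeR adjusted p 0.583), and the NRT2 difference in tip against midsection had -5.82 ± 2.43 (edgeR adjusted p 0.177), which rests on the few Pennellii counts given above. With the identical libraries kept, that NRT2 difference was -8.31 (edgeR adjusted p 0.0899). The NRT2 difference in the phosphate response of tips then went from -3.60 to 1.87 (edgeR adjusted p 0.520 and 0.814).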

How the data were processed

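Estimated counts for each gene model were deposited by the authors, in 1 table per species, and 6.17% of values were fractional. Per the submitters' processing notes, the tools were Bowtie 1.2.2, FastQC, limma and edgeR. The counting program, genome build and annotation were not given in the sources used here. Libraries were strand-specific 3′-end libraries of total RNA, per the labels' protocols. Counts were rounded. Genes were kept by filterByExpr (minimum count 10, minimum total 15), scaled by TMM, and tested in R 4.3.3 by the quasi-likelihood test of edgeR 4.0.16 (robust fit, Benjamini-Hochberg over all genes tested, threshold 0.05). The groups of a species shared 1 fit (18275 genes in M82, 13450 in Pennellii). Standard errors are the log2 change over the square root of F. Members and lists were chosen with earlier results of these data known. The naming rule took all members and, for each, the gene with the nearest M82 profile (log2 CPM, prior count 2). Other nitrogen genes were not analysed here, since the tables hold identifiers without names. Alternatives used DESeq2 1.42.0, limma 3.58.1, RLE, no filter, other sets of libraries, and a replicate block. The planned sum of both NRT2 genes was not run, because 1 of them was not analysed here. Counting intervals are exact and cover counting error only. Replicates are biological per the series' text. Leaving out the 2 identical libraries was decided with their identity known.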

Additional observations from a re-analysis of the deposited data

Results flagged for a closer look

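In 10 of 41 groups of 4 libraries, 1 library lay far from the other 3 by Dixon's 95% criterion. That criterion picks about 1 in 20 groups of independent, normally distributed values, a rate that need not hold here, since the groups share libraries and some hold only 1 or 2 counts. In M82, nitrate reductase stood at 255 CPM in sufficient tip replicate 4, with the next library at 105 CPM, and AMT1;2 at 121 CPM in limiting tip replicate 3, below 3 libraries of 138 CPM or more. AMT1;3 was at 4.77 CPM in limiting tip replicate 4 and 4.45 CPM in sufficient tip replicate 3, where the others were at or near 0.

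In Pennellii, limiting midsection replicate 1 stood apart in 3 genes: nitrite reductase at 518 CPM, nitrate reductase at 388 CPM and NRT2 at 4.00 CPM, the last from 2 counts. AMT1;2 was at 86.0 CPM and AMT1;3 at 1.12 CPM in sufficient tip replicate 1, and NRT2 at 0.790 CPM in sufficient tip replicate 3, the last 2 from 1 count each.

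The 2 identical Pennellii libraries, left out of the main fits and kept only in an alternative, held 20 counts of NRT1.1, 11 of nitrite reductase and 5 of nitrate reductase. They held 2 counts each of NRT2, AMT1;1 and AMT1;2, below the floor of 3, and 0 of AMT1;3. Which of their labels is right was not tested.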

How the results depend on the processing

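Of 76 member results, 9 were called, and over 1300 alternative values 0 called values changed sign. In 23 values a call was lost and in 10 one was gained, and 104 values that were called in neither setting changed sign. Both NRT2 position calls kept a log2 difference of 5.82 to 7.33. For phosphate in M82 tips, 0 members were called with RLE scaling (1.34% of all genes), limma-voom (2.49%) or the compared groups alone (0.992%). Leaving out 1 library gave 0 to 1. For phosphate in M82 midsections, limma-voom called 1 (3.68% of all genes) and leaving out libraries gave 0 to 1. For tip against midsection at limiting phosphate, the compared groups alone called 4 of 6 members tested (18.5% of all genes) and limma-voom 3 of 7, nitrate reductase being added (17.3% of all genes). For the species difference in the midsection response, DESeq2 (0.432% of all genes) and no low-count filter (0.427%) each called 1. The compared groups alone (0.184%) and only deep Pennellii libraries (0.0827%) also called 1 each, and leaving out libraries gave 0 to 1. The cause was not tested. With the replicate block, tip against midsection at sufficient phosphate had 5 calls in place of 6 (25.8% of all genes). AMT1;1 was lost (log2 0.99, edgeR adjusted p 0.0565), and no other member call changed. Deviations of same-numbered M82 libraries of different groups correlated at -0.0361 to 0.0982 (median 0.0232). Those with different numbers correlated at -0.0702 to 0.0647 (median -0.00472). Low correlations cannot exclude a shared batch, and whether same-numbered libraries shared one was not tested. In Pennellii 3 of 18 same-numbered pairs exceeded 0.1, with a range of -0.0633 to 0.215, beside 1 of 55 pairs with different numbers. DESeq2 gave no adjusted p for 14 member values. In Pennellii the floor of 3 counts reached 180 CPM in the shallowest library, against at most 2.79 CPM in M82.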
